A study of Danio rerio with 16 samples.

Results

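The genes described here are 5 zebrafish genes for transcription factors of the immediate early response. They are fosab (ENSDARG00000031683), junba (ENSDARG00000074378), junbb (ENSDARG00000104773), atf3 (ENSDARG00000007823) and egr1 (ENSDARG00000037421), taken by name from a table of 32520 gene IDs. No threshold on their values picked them, but earlier results of these data were known when they were chosen. All 5 were among the 14986 genes that passed a filter on low counts, with at least 16 counts in every library. The 16 libraries hold messenger RNA of heart ventricles from adult fish, 3 ventricles pooled in each, to ask which genes depend on ankrd1a in the regenerating heart. Ankrd1a is an ankyrin repeat protein of striated muscle. The 4 groups of 4 libraries were wild-type AB (Oregon) fish and fish of the ankrd1abns502 line, in which ankrd1a carries a mutation made with CRISPR/Cas9, each either cryoinjured or sham-operated. Injured fish had a cryoprobe chilled with liquid nitrogen on the ventricular apex for 25 seconds, sham fish had a probe at room temperature, and both recovered for 7 days. Every group therefore carries the surgery, and the mutation is a germline one, present in all cells of the heart and not only in muscle.

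The Fos and Jun families are leucine zipper proteins that pair with each other to form AP-1, a dimer that binds DNA at the promoters and enhancers of genes for growth, matrix remodelling and inflammation. Fos proteins bind DNA only as partners of a Jun protein, while Jun proteins can also pair among themselves. These genes are known for a rapid and short burst of transcription after serum, stretch, wounding or stress, driven by kinase cascades that act on factors already present in the cell.

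The libraries held 5623732 to 12254728 estimated counts. The share of counts from mitochondrial genes was 18.6% to 22.9% in the 8 sham libraries and 7.91% to 14.3% in the 8 injured libraries, lowest in replicate 4 of the injured wild type. Summed ventricular cardiomyocyte markers, in CPM (counts scaled to a common library total, here after TMM scaling for composition), were abundant in all 4 groups, at 57280 to 79080 CPM in sham and 34850 to 58770 CPM in injured libraries, and 5 of 9 tested were called lower after injury in wild type and 4 of 9 in mutants. Markers of the atrium and bulbus arteriosus summed to 1812 to 3181 CPM in sham and 1765 to 4670 CPM in injured libraries, with 5 of 9 called higher in wild type and 6 of 9 in mutants. The largest part of these sums was on average nppa, with means of 1635 and 1614 CPM in sham and injured wild type and 2154 and 2439 CPM in mutants. The atrial myosin gene myh6 averaged 278 and 557 CPM in wild type and 186 and 124 CPM in mutants. Leukocyte markers summed to 154 to 526 CPM in sham and 670 to 1305 CPM in injured libraries, and epicardial and fibroblast markers to 2236 to 3332 CPM and 7175 to 11390 CPM. Of the leukocyte markers, 8 of 9 tested were higher after injury in each genotype, and of the epicardial and fibroblast markers 11 of 13 in wild type and 9 of 13 in mutants. Skeletal muscle markers summed to 4387 to 12000 CPM, almost all of it from ckma and the gene IDs with the symbol ACTA1, while the other 10 of 13 averaged at most 52.1 CPM in any group. Of 11 tested, 3 were called higher and 1 lower after injury in wild type, 1 higher and 0 lower in mutants, and 3 were lower in injured mutants than in injured wild type. Erythrocyte markers summed to 1269 to 2586 CPM in sham and 1295 to 7173 CPM in injured wild type. In mutants they summed to 514 to 1152 and 540 to 1572 CPM. Of 4 tested, 2 were higher after injury in wild type and 2 lower in injured mutants than in injured wild type. Endothelial markers summed to 1018 to 1554 CPM in sham and 1398 to 1997 CPM in injured libraries. Of all genes, 13.9% rose and 11.5% fell in wild type, and 16.5% and 12.4% in mutants. Between injured genotypes, 2 of 13 epicardial and fibroblast markers were lower in mutants, and of 9 atrial and bulbus markers 1 was higher and 1 lower. No cardiomyocyte, leukocyte or endothelial marker was called there, and 2.56% of all genes were. In sham fish 1 marker each of the cardiomyocyte, atrium and bulbus, and leukocyte lists was higher in mutants. Of the epicardial and fibroblast markers 1 was lower, and 2.62% and 3.19% of all genes were called higher and lower. In bulk tissue, more cells of a type and more RNA per cell cannot be told apart, and the part that the change in these markers plays in the results below was not tested. ANKRD1, as the symbol table calls both of its gene IDs, had 66 to 340 counts in the injured libraries of either genotype and 1 to 26 in the sham libraries for ENSDARG00000075263, and at most 5 counts for ENSDARG00000076192. These counts do not check the genotype labels, because the files do not say what the allele does to the transcript.

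Cryoinjury raised fosab, junba and junbb in both genotypes, while atf3 and egr1 passed the test in neither. In wild type the fitted rise was 4.55-fold for fosab, 5.18-fold for junba and 2.94-fold for junbb, and in mutants it was 7.37-fold, 4.75-fold and 3.18-fold. No difference between the genotypes passed the test for any of the 5 genes, in sham fish, in injured fish or as a difference in the injury response. Calls rest on edgeR's quasi-likelihood test at an adjusted p below 0.05, with Benjamini-Hochberg adjustment over all 14986 genes. In wild type 3 of the 5 genes were called higher, against 13.9% of all genes tested, and in mutants 3 of 5 against 16.5%. All 4 injured libraries lay above all 4 sham libraries for fosab, junba and junbb in wild type, which held for 14% of all genes tested, and for junba and junbb in mutants, which held for 15.8%.

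**Figure D1:**
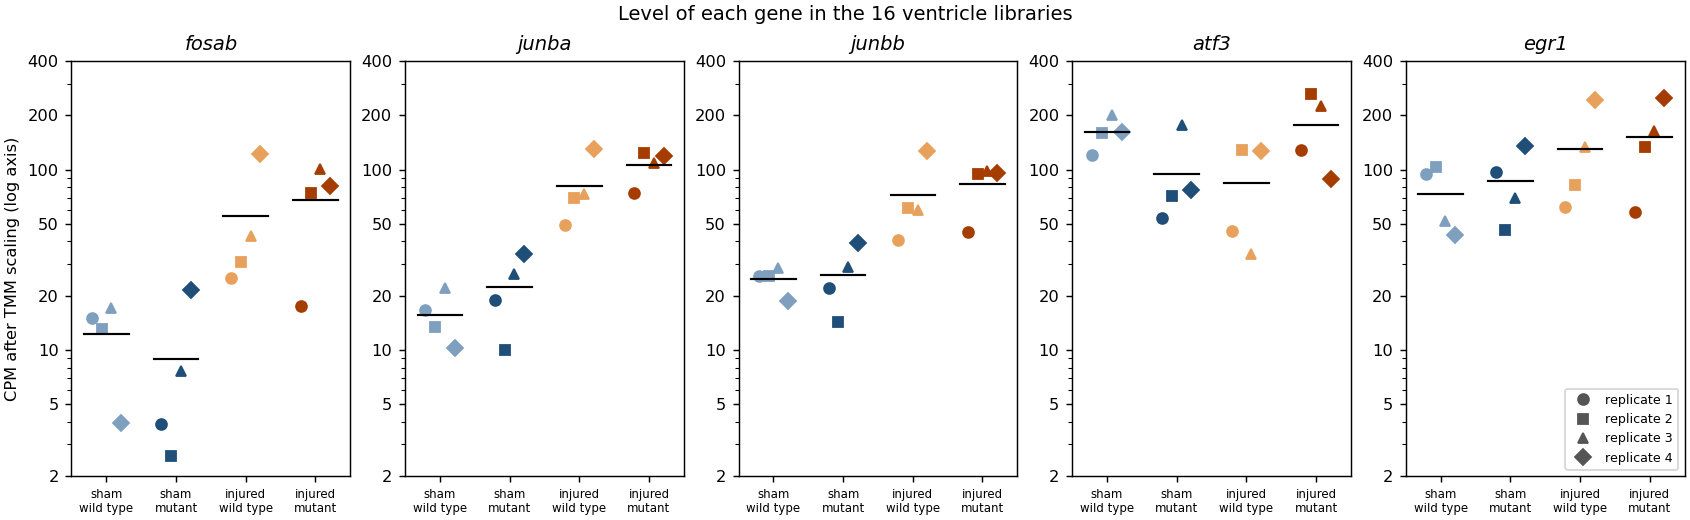
Level of fosab, junba, junbb, atf3 and egr1 in CPM after TMM scaling (log axis) in each of the 16 libraries. Points are libraries, shaped by replicate number, and bars are group means. The junba and junbb points of injured fish lie above every sham point of the same genotype, while those of atf3 and egr1 overlap.

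The first of the AP-1 genes, fosab, encodes a zebrafish c-Fos, the partner that lends AP-1 its strong activation. Its level in the 4 sham wild-type libraries was 15.1, 13.0, 17.1 and 3.93 CPM, and in the 4 injured wild-type libraries 25.2, 30.9, 42.9 and 123 CPM. Replicate 4 of the injured group stood far above its 3 companions, replicate 4 of the sham group far below its own, and the groups did not overlap. The group means were 12.3 ± 5.80 and 55.5 ± 45.6 CPM (SD, n = 4 each), and the log2 fold change was 2.19 (SE 0.64, 95% interval 0.84 to 3.53, edgeR adjusted p = 0.0179). This call rested on 1 library. Without replicate 4 of the injured wild type, which also had the lowest mitochondrial share of the 16, the log2 fold change was 1.43 and the edgeR adjusted p was 0.0967.

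In the mutants fosab read 3.88, 2.60, 7.61 and 21.6 CPM after sham surgery and 17.6, 74.2, 100.3 and 80.9 CPM after injury. Here the groups overlapped, because replicate 1 of the injured mutants lay below replicate 4 of the sham mutants. The means were 8.91 ± 8.69 and 68.3 ± 35.6 CPM (SD, n = 4 each), with a log2 fold change of 2.88 (SE 0.65, 95% interval 1.51 to 4.25, edgeR adjusted p = 0.00316). Leaving out any 1 library kept the adjusted p between 0.00083 and 0.0128. The mean level of fosab rose in the order sham mutant, sham wild type, injured wild type, injured mutant, and within each treatment the genotypes overlapped.

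The gene junba encodes one of the JunB proteins, Jun family partners of Fos that in mammals activate DNA less strongly than c-Jun and can restrain it. It read 16.8, 13.5, 22.2 and 10.2 CPM in sham wild type and 49.1, 70.1, 73.4 and 131 CPM in injured wild type. All 4 injured libraries were above all 4 sham libraries, and the log2 fold change was 2.37 (SE 0.35, 95% interval 1.65 to 3.10, edgeR adjusted p = 9.67e-05). In mutants it read 18.9, 10.1, 26.4 and 33.9 CPM after sham surgery and 74.5, 124, 109 and 119 CPM after injury. The mutant groups were again apart, with a log2 fold change of 2.25 (SE 0.34, 95% interval 1.54 to 2.96, edgeR adjusted p = 0.000113). Its mean level was 15.7 ± 5.11 CPM in wild type and 22.3 ± 10.2 CPM in mutants after sham surgery, and 80.9 ± 35.1 and 107 ± 22.2 CPM after injury (SD, n = 4 each). In that order the 2 sham groups overlapped each other, as did the 2 injured groups, and the highest sham library stayed below the lowest injured one.

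The second JunB gene, junbb, rose less in fold. It read 25.7, 25.9, 28.4 and 18.6 CPM in sham wild type and 40.8, 60.9, 60.2 and 128 CPM in injured wild type, so that the lowest injured library was above every sham one. The log2 fold change was 1.56 (SE 0.34, 95% interval 0.84 to 2.27, edgeR adjusted p = 0.00265). In mutants it read 22.0, 14.3, 28.9 and 39.2 CPM after sham surgery and 45.2, 94.5, 98.4 and 96.1 CPM after injury. Replicate 1 of the injured mutants fell well short of the other 3 but remained above the sham libraries, and the log2 fold change was 1.67 (SE 0.34, 95% interval 0.96 to 2.38, edgeR adjusted p = 0.00134). The order of its group means was that of junba, from 24.6 ± 4.21 CPM in sham wild type through 26.1 ± 10.6 and 72.3 ± 37.9 to 83.5 ± 25.6 CPM in injured mutants (SD, n = 4 each).

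The gene atf3 encodes a leucine zipper factor of the ATF family that is induced by many forms of stress, represses as a homodimer and pairs with Jun proteins. Its wild-type libraries read 121, 160, 201 and 162 CPM after sham surgery and 45.6, 129, 34.2 and 127 CPM after injury. The injured libraries formed a low and a high pair, the high pair reached into the sham range, and the log2 fold change of -0.94 (SE 0.43, 95% interval -1.84 to -0.04) had an unadjusted p of 0.0425 and an edgeR adjusted p of 0.121. In mutants the sign was the other way. The sham mutants read 53.9, 71.8, 177 and 76.7 CPM and the injured mutants 129, 263, 226 and 89.3 CPM, with replicate 3 standing high among the sham and replicate 4 low among the injured libraries. The log2 fold change was 0.90 (SE 0.43, 95% interval 0.00 to 1.80, edgeR adjusted p = 0.126). Without replicate 3 of the sham mutants it was 1.38 with an adjusted p of 0.027.

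The gene egr1 encodes a zinc finger factor that serum response factor and Elk proteins switch on in the first minutes of a growth signal. Its levels were 94.9, 103, 52.3 and 43.4 CPM in sham wild type and 62.2, 82.2, 134 and 245 CPM in injured wild type. In mutants they were 97.2, 46.4, 69.3 and 135 CPM after sham surgery and 58.2, 133, 163 and 250.2 CPM after injury. In wild type the injured libraries at 134 and 245 CPM lay above every sham library, and in mutants those at 163 and 250.2 CPM did. The other injured libraries lay within the sham range of their genotype. The log2 fold changes of 0.83 in wild type (SE 0.45, 95% interval -0.11 to 1.77, edgeR adjusted p = 0.19) and 0.80 in mutants (SE 0.45, 95% interval -0.14 to 1.73, edgeR adjusted p = 0.193) have intervals that take in both no change and a rise as large as that fitted for junbb.

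**Figure D2:**
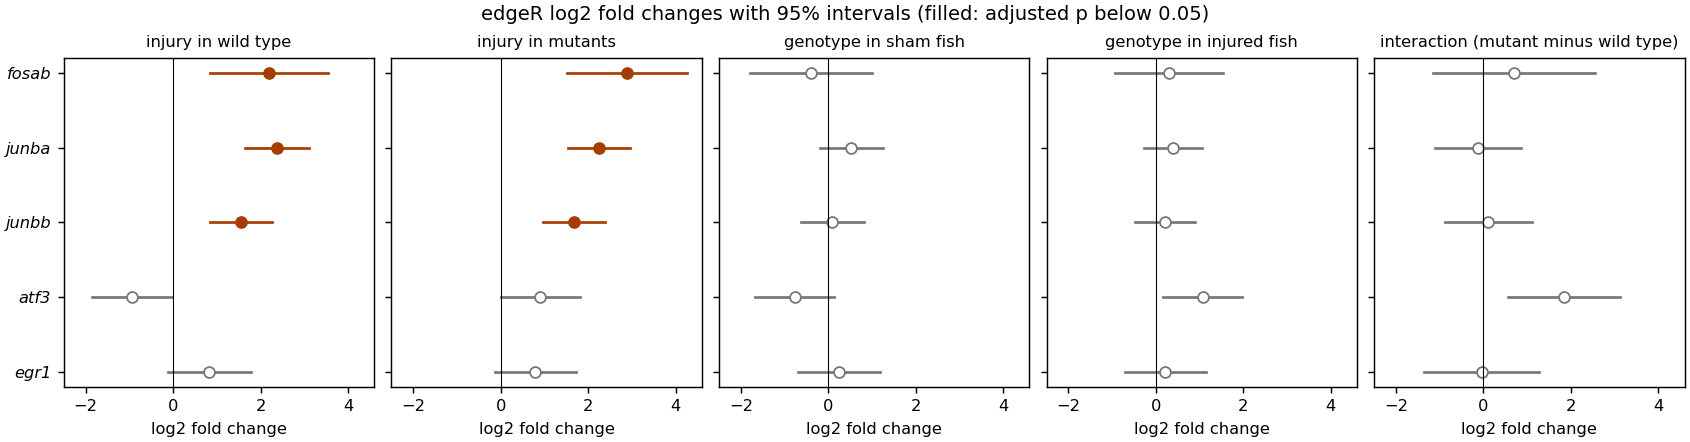
Fitted log2 fold change of each gene (x axis) in the 5 comparisons, for fosab, junba, junbb, atf3 and egr1 (rows). The 95% intervals were calculated from edgeR's log2 fold change and F statistic. Filled symbols have an adjusted p below 0.05. The filled symbols are fosab, junba and junbb in both injury comparisons, and none lies in the 3 comparisons that involve genotype.

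The comparison of genotypes asked whether the mutants differ before or after injury. In sham fish 0 of the 5 genes were called, where 5.81% of all genes were. At an unadjusted p below 0.05 there were 0 of 5, against 19.9% of all genes. In injured fish 0 of 5 were called, where 2.56% of all genes were. Here 1 of 5, atf3, had an unadjusted p below 0.05, against 16% of all genes. DESeq2 called 0 of 5 in each as well. The log2 differences, mutant over wild type, in sham fish were -0.40 for fosab, 0.52 for junba, 0.09 for junbb and 0.25 for egr1, with edgeR adjusted p between 0.43 and 0.923. In injured fish they were 0.30, 0.40, 0.21 and 0.21, with edgeR adjusted p between 0.583 and 0.856. In injured fish the 95% intervals ran from -0.48 to 0.89 for junbb, from -0.27 to 1.06 for junba and from -0.94 to 1.53 for fosab. The fosab difference in sham fish was -1.40 without replicate 4 of the sham mutants, and it did not pass the test there either (edgeR adjusted p = 0.296).

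Of the 5 genes, atf3 had the widest gap between genotypes. Mutants averaged 94.8 ± 55.6 CPM against 161 ± 32.7 CPM in wild type after sham surgery, and 177 ± 81.3 against 83.9 ± 50.9 CPM after injury (SD, n = 4 each). The order of its group means, from low to high, was thus injured wild type, sham mutant, sham wild type, injured mutant, and each overlapped its neighbour. Mutant over wild type, the log2 difference was -0.77 in sham fish (SE 0.43, edgeR adjusted p = 0.341) and 1.07 in injured fish (SE 0.43, unadjusted p = 0.0228, edgeR adjusted p = 0.219). The difference between the injury responses was 1.84 on the log2 scale (SE 0.61, 95% interval 0.56 to 3.12, unadjusted p = 0.00727), and after adjustment over all genes it did not pass the test (edgeR adjusted p = 0.465). For the other 4 genes that difference lay between -0.13 and 0.70, with edgeR adjusted p from 0.888 to 0.995. Over all 14986 genes the interaction had 0 calls (0%) by edgeR, 1155 genes at an unadjusted p below 0.05 and 39 calls by DESeq2. None of those 39 was one of the 5.

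Libraries of 1 group differed from each other in these genes by more than in most genes. The SD of log2 CPM within groups was 1.1 for fosab, 0.77 for egr1, 0.73 for atf3, 0.55 for junba and 0.55 for junbb, where the median gene with a mean of at least 5 CPM had 0.29. Of 10290 such genes, 99.2% varied less than fosab, 97.4% less than egr1, 96.9% less than atf3, 91.5% less than junba and 91.2% less than junbb. Within the sham mutants fosab spanned 8.29-fold.

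Much of this variation was shared. After subtraction of each group's mean log2 CPM, fosab and junbb deviated in the same direction in 16 of 16 libraries, with Pearson's r at 0.94 and Spearman's rho at 0.94. The exact permutation p, from 331776 reassignments of libraries within groups, was 2.11e-05 and 0.000181 after adjustment over the 10 pairs of genes. The pair fosab and junba gave r = 0.90, rho = 0.86 and an adjusted p of 0.000181, and junba and junbb gave r = 0.93, rho = 0.87 and an adjusted p of 0.000241, in the same exact permutation test. The gene egr1 varied with this trio, with r = 0.82 to fosab, 0.84 to junbb (adjusted p = 0.00225 for both) and 0.70 to junba (adjusted p = 0.00964). In direction alone egr1 matched fosab in 11 of 16 libraries, as did atf3. In all, 6 of 10 pairs passed, and the other 4 were those that hold atf3, whose r was 0.30 with fosab, 0.40 with junba, 0.44 with junbb and -0.01 with egr1 (adjusted p = 0.264 to 0.975). The share of pairs of other genes that would pass was not computed, so these counts do not set the 5 genes apart. The genes junba and junbb may share reads, and the part this plays in their r was not tested. Without the 2 libraries farthest from the median of the first gene, 5 of the 6 pairs kept r between 0.74 and 0.94. The pair junba and egr1 fell to r = 0.59 and no longer passed the exact permutation test (adjusted p = 0.0881). With any 1 library left out, that pair kept r between 0.613 and 0.815 and passed the same test (adjusted p from 0.00159 to 0.0429).

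**Figure D3:**
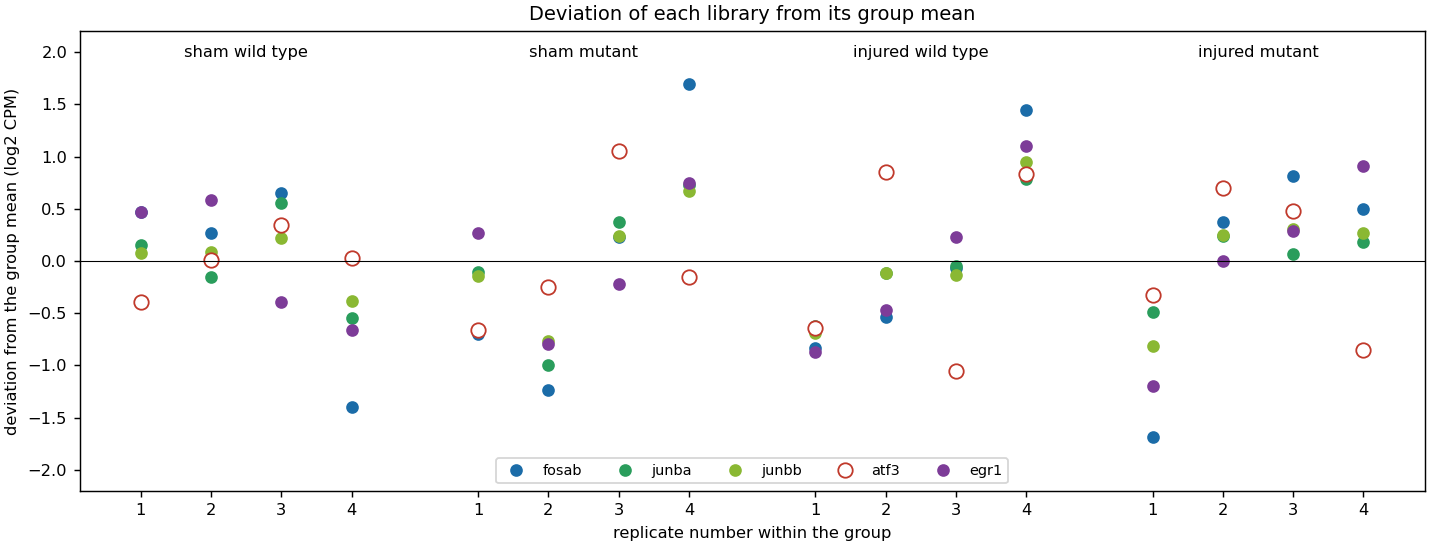
Deviation of each library's log2 CPM from its group mean (y axis) for fosab, junba, junbb, atf3 and egr1, by replicate number within the 4 groups (x axis). Filled symbols of fosab, junba and junbb lie on the same side of 0 in most libraries. Both atf3 (open symbols) and egr1 shared the side of fosab in 11 of 16 libraries.

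The libraries that carried this shared variation can be read from the deviations. Replicate 4 of the injured wild type and replicate 4 of the sham mutants were the highest of their groups for fosab, junba, junbb and egr1. Replicate 1 of the injured mutants was the lowest of its group for the same 4 genes, and replicate 4 of the sham wild type was too. Number 4 was thus not on the same side of the mean in all groups, and the labels state no batch. Within groups, none of 45 relations between the 5 genes and the total count, the mitochondrial share or the summed level of 7 sets of cell type markers passed adjustment in the exact permutation test. The closest was egr1 with the leukocyte markers (r = 0.66, rho = 0.64, exact permutation p = 0.0115, adjusted p = 0.516), and egr1 also had r = 0.57 with the total count (exact permutation p = 0.0445).

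Among 10285 other genes with a mean of at least 5 CPM, those whose deviations over the 16 libraries were most like fosab were TRAF4 (r = 0.93), zgc:162730 (r = 0.92) and ier2b (r = 0.90). For junbb they were zgc:162730 (r = 0.92), ier2a (r = 0.90) and ier2b (r = 0.89), and for egr1 they were BTG2 (r = 0.90), ier2a (r = 0.88) and rnf114 (r = 0.88). The ier2 genes are themselves immediate early genes and Btg2 is an early response gene that slows division. Closest to junba were JUN (r = 0.90), si:ch73-14h10.4 (r = 0.86) and rorca (r = 0.85). The nearest genes to atf3 were si:ch211-269k10.2 (r = 0.83), LRRC1 (r = 0.83) and ZNF326 (r = 0.82), none of which was among the 3 nearest to any of the others. These values describe libraries that share their depth and composition, and the highest of many correlations is high by selection. Several symbols in the table are written as for human genes, and they are printed as given.

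The balance of both JunB genes differed between sham and injured libraries. The difference did not pass after adjustment, though the test was at its smallest possible p. The ratio of junba to junbb counts after sham surgery was 0.653, 0.522, 0.783 and 0.551 in the wild-type libraries and 0.855, 0.705, 0.912 and 0.865 in the mutant ones. After injury it was 1.20, 1.15, 1.22 and 1.03 in wild type and 1.65, 1.31, 1.11 and 1.24 in mutants. All 8 injured libraries were above all 8 sham libraries, and the ratio needs no scaling between libraries. The counts are not per length, so a ratio of 1 does not mean equal numbers of transcripts. The mean ratio was 0.627 ± 0.118 and 1.15 ± 0.0873 in sham and injured wild type, and 0.834 ± 0.0900 and 1.33 ± 0.231 in mutants (SD, n = 4 each). The log2 ratio of injured fish exceeded that of sham fish by 0.89 in wild type and 0.66 in mutants. Each had a 2-sided exact permutation p of 0.0286, the smallest that 4 libraries against 4 allow, and 0.0714 after adjustment over 5 comparisons. No wider gap between these groups could have lowered either value. Mutants exceeded wild type by 0.42 after sham surgery (exact permutation p = 0.0571) and by 0.19 after injury (exact permutation p = 0.229). The ratio was chosen after its values were seen. How often the ratios of other gene pairs separate all injured from all sham libraries was not computed. As JunB genes of one family, junba and junbb may share reads, and how the counting divided them is not given in the sources used here.

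**Figure D4:**
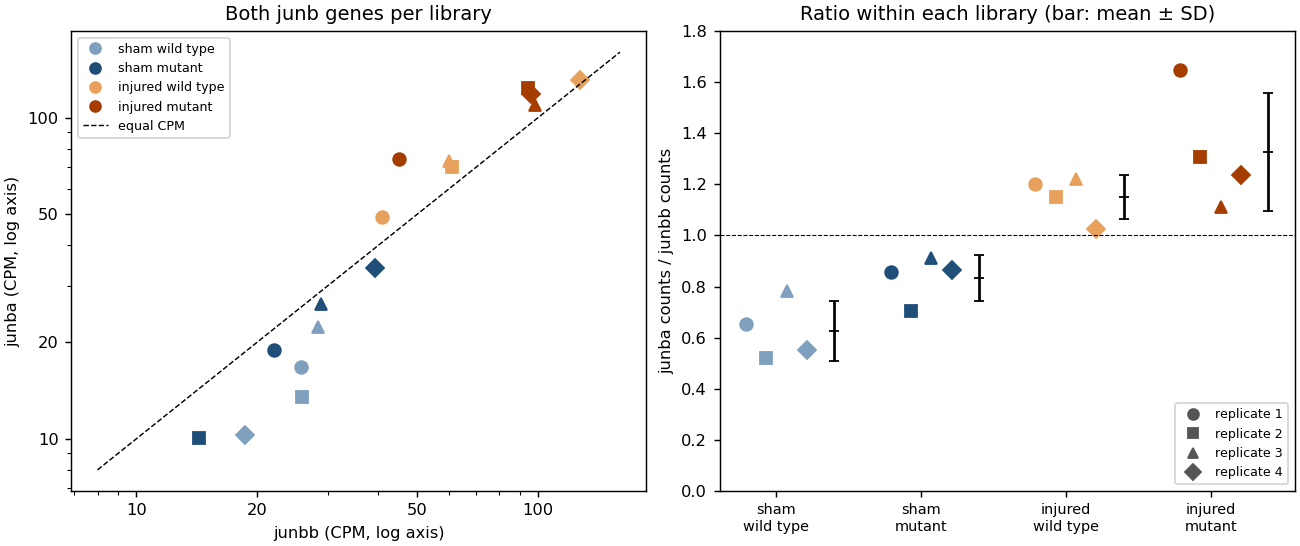
Left, junba against junbb in CPM (both axes log) for the 16 libraries, with a line of equal CPM for orientation. Right, the ratio of junba to junbb counts in each library, with the mean and SD of each group: all 8 sham libraries lie below 1 and all 8 injured libraries above 1.

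The 5 genes were set beside 138 other genes of the early response, in lists of AP-1 partners, other early factors, upstream kinases and factors, feedback inhibitors and genes known mainly from mammals as AP-1 or Egr1 targets, of which 122 were tested. In wild type 30 were called higher and 10 lower after injury, and in mutants 37 and 6. Their median log2 fold change was 0.14 in wild type and 0.41 in mutants, against 0.01 and -0.02 over all genes, of which 13.9% and 16.5% were called higher and 11.5% and 12.4% lower.

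Among the other Fos, Jun and leucine zipper genes, 17 of 24 were tested. Of these 6 rose and 0 fell in wild type, where 13.9% and 11.5% of all genes did. In mutants 5 rose and 1 fell, where 16.5% and 12.4% of all genes did. The Fos-related FOSL2 (ENSDARG00000040623) went from 18.1 ± 6.88 to 49.7 ± 18.6 CPM in wild type and from 7.23 ± 3.25 to 51.9 ± 22.3 CPM in mutants (SD, n = 4 each). Its log2 fold changes were 1.46 (edgeR adjusted p = 0.00492) and 2.81 (edgeR adjusted p = 3.58e-05). FOSL1 (ENSDARG00000015355), another Fos-related gene, had log2 fold changes of 1.40 in wild type (edgeR adjusted p = 0.0239) and 3.17 in mutants (edgeR adjusted p = 7.78e-05). The wild-type call of FOSL1 was lost without replicate 4 of either wild-type group, where its adjusted p reached 0.13.

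FOSB (ENSDARG00000055751), a Fos gene at few counts, rose in mutants by a log2 fold change of 3.43 (edgeR adjusted p = 0.0112), and its value in wild type was 0.65 (edgeR adjusted p = 0.575). The interaction did not pass the test for any of these Fos genes. JUN (ENSDARG00000043531), which encodes c-Jun, had log2 fold changes of -0.39 in wild type and 0.04 in mutants (edgeR adjusted p = 0.351 and 0.93), unlike both JunB genes in being called in neither. JUND (ENSDARG00000067850), a Jun gene known for steady expression, had a value of -0.60 in wild type (edgeR adjusted p = 0.153). In mutants JUND rose by 0.84 on the log2 scale (edgeR adjusted p = 0.0428), a call that held only without replicates 1 or 4 of the injured or replicate 3 of the sham mutants. In the other 5 fits that leave out 1 library the adjusted p reached 0.261. The second c-Fos gene, fosaa, had at most 3 counts in any library and was not tested. JDP2 (ENSDARG00000020133), a repressor that pairs with Jun, rose in wild type (log2 fold change 1.47, edgeR adjusted p = 0.0444), a call lost without replicate 4 of the injured or replicates 1, 3 or 4 of the sham wild type (adjusted p up to 0.189). Its value in mutants was 1.3 (edgeR adjusted p = 0.0605), and the other gene ID with the symbol JDP2, ENSDARG00000040137, had 0.64 and 0.37 (edgeR adjusted p = 0.172 and 0.399).

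**Figure D5:**
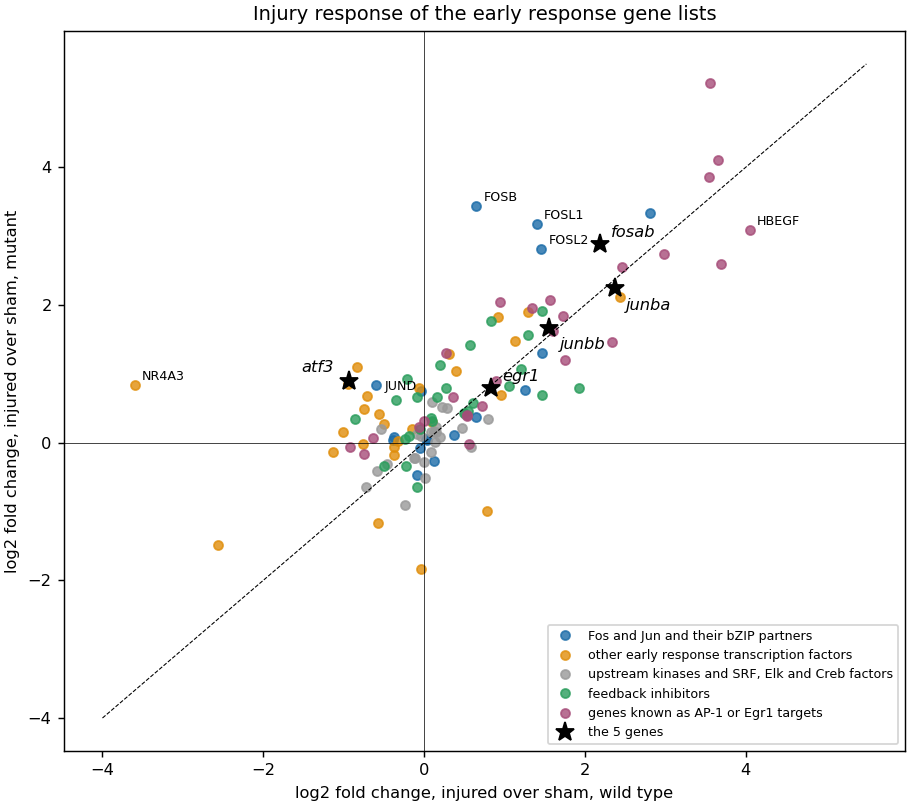
Log2 fold change after injury in wild type (x axis) and in mutants (y axis) for the 5 genes (stars) and the tested genes of the 5 lists (circles, coloured by list), with a line of equal change. fosab, junba and junbb lie near the line in the upper right, and atf3 lies at -0.94 and 0.90.

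Of 27 other early response factors tested, 2 rose and 5 fell in wild type, while 7 rose and 3 fell in mutants. The shares of all genes tested were 13.9% and 11.5% in wild type and 16.5% and 12.4% in mutants. CEBPB (ENSDARG00000042725), a leucine zipper factor of acute inflammation, rose in both, by 2.44 and 2.11 on the log2 scale (edgeR adjusted p = 2.21e-05 and 6.55e-05). NR4A3 (ENSDARG00000055854), an orphan nuclear receptor induced early by many stimuli, went from 239 ± 185 to 19.7 ± 10.4 CPM in wild type (SD, n = 4 each), a log2 fold change of -3.60 (edgeR adjusted p = 0.000944). In mutants NR4A3 read 48.3 ± 31.0 and 86.0 ± 52.3 CPM (SD, n = 4 each), a log2 fold change of 0.83 (edgeR adjusted p = 0.341). The difference between these responses of NR4A3 was not called in the main edgeR fit. It was called by DESeq2 (4.43 on the log2 scale, adjusted p = 0.0147) and by edgeR without a filter on low counts (4.43, adjusted p = 0.0231). KLF9, a Krüppel-like factor responsive to glucocorticoids, fell in wild type by 2.56 on the log2 scale (edgeR adjusted p = 0.00301). Its log2 fold change in mutants was -1.48 (edgeR adjusted p = 0.0494), a call that held only without replicate 4 of the injured or of the sham mutants (adjusted p up to 0.187), and that DESeq2 and RLE scaling did not make.

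Few of the kinases and factors that act upstream of fosab and egr1 were called. Of 26 tested, 2 rose and 1 fell in wild type, and 1 rose and 1 fell in mutants. Of all genes tested, 13.9% rose and 11.5% fell in wild type, and 16.5% and 12.4% in mutants. Neither gene ID with the symbol SRF, the serum response factor, was called in either genotype (edgeR adjusted p = 0.0995 to 0.821). Feedback inhibitors, which switch the early response off, held 4 that rose and 2 that fell of 26 tested in wild type, near those shares. In mutants 8 of them rose and 1 fell. SOCS3 (ENSDARG00000026611), an inhibitor of cytokine signalling, rose by log2 fold changes of 1.47 and 1.91 (edgeR adjusted p = 0.000287 and 3.06e-05). The other SOCS3 ID, ENSDARG00000025428, had 0.84 in wild type (edgeR adjusted p = 0.0678) and rose by 1.77 in mutants (edgeR adjusted p = 0.000787). The NF-kappaB inhibitor gene nfkbiaa rose by 1.92 and 0.80 (edgeR adjusted p = 9.2e-05 and 0.0277). Its mutant call was lost without replicate 2 of the injured or any 1 of the sham mutants, where its log2 fold change fell as low as 0.49 and its adjusted p reached 0.129.

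Of the genes known as AP-1 or Egr1 targets, 16 of 26 tested were called higher and 2 lower in wild type, where 13.9% and 11.5% of all genes were, and 16 higher and 0 lower in mutants, where 16.5% and 12.4% were. Their median log2 fold change was 1.14 in wild type and 1.38 in mutants. HBEGF (ENSDARG00000031246), which encodes a ligand of the EGF receptor, went from 1.02 ± 0.394 to 16.9 ± 7.31 CPM in wild type and from 1.80 ± 0.779 to 16.1 ± 3.96 CPM in mutants (SD, n = 4 each). The matrix protease gene MMP9 rose by 2.46 and 2.55 (edgeR adjusted p = 0.000694 and 0.000656), and the cytokine gene il11a by 3.56 and 5.23 (edgeR adjusted p = 0.00301 and 0.000257), all on the log2 scale. In sham libraries il11a averaged 0.56 ± 1.00 CPM in wild type and 0.16 ± 0.24 CPM in mutants (SD, n = 4 each). It had at most 10 and 5 counts there, so the size of its rise in each genotype rests on few counts. The summed markers of leukocytes and of epicardium and fibroblasts were also higher in the injured libraries. Whether these targets follow those cells was not tested.

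Between genotypes, 4 of the 122 list genes were called higher and 6 lower in sham mutants than in sham wild type, where 2.62% and 3.19% of all genes were. None of the 10 was one of the 5 genes. In the AP-1 list these were FOSL2 (log2 difference -1.29, edgeR adjusted p = 0.0465) and JUND (-1.06, edgeR adjusted p = 0.046). With 1 library left out the FOSL2 call held only without replicate 4 of either sham group (adjusted p up to 0.147), and that of JUND only without replicate 3 of the sham mutants (adjusted p up to 0.125). The JUND call was also lost with RLE in place of TMM scaling. NR4A3 was also lower (-2.31, edgeR adjusted p = 0.0421), a call that held only without replicate 2 of the sham mutants or replicate 4 of the sham wild type (adjusted p up to 0.153). The lower calls of klf2b (-1.14, edgeR adjusted p = 0.0101) and of spred2a, an inhibitor of Ras signalling (-0.80, edgeR adjusted p = 0.0127), held in 8 of 8 fits that leave out 1 library, with adjusted p up to 0.0445. The 4 higher calls were NR4A2 (ENSDARG00000017007; 2.43, edgeR adjusted p = 0.0249), KLF11 (ENSDARG00000013794; 1.59, edgeR adjusted p = 0.021), the other KLF11 ID (ENSDARG00000030844; 1.18, edgeR adjusted p = 0.0471) and nfkbiaa (1.09, edgeR adjusted p = 0.0279). The NR4A2 call was lost without replicates 3 or 4 of the sham mutants or 1 or 2 of the sham wild type (adjusted p up to 0.084), and the first KLF11 call without replicate 2 of the sham mutants or 2, 3 or 4 of the sham wild type (up to 0.0684). The second KLF11 call held only without replicates 3 or 4 of the sham mutants (adjusted p up to 0.134), and that of nfkbiaa only without replicate 2 of either group (up to 0.0769). The called NR4A2 ID had few counts, at most 15 in sham wild type, where its mean was 1.06 CPM. The other NR4A2 ID, ENSDARG00000044532, was not called in the main fit and went the other way in 2 alternatives. Its log2 difference was -1.52 by DESeq2 (adjusted p = 0.0376) and -1.54 in a fit of the compared groups alone (edgeR adjusted p = 0.0221). After injury 1 of 122 list genes was called, where 2.56% of all genes were. It was f3a, a gene for the clotting initiator tissue factor, which was higher in mutants at 13.5 ± 4.36 against 4.99 ± 1.05 CPM (SD, n = 4 each; log2 difference 1.43, edgeR adjusted p = 0.0171). The f3a call was lost without replicates 1 or 3 of the injured mutants or replicates 2 or 3 of the injured wild type (adjusted p up to 0.0591). In the interaction 0 of 122 were called by edgeR and 2 by DESeq2, and 20 had an unadjusted p below 0.05 (16.4%, against 7.71% of all genes).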

How the data were processed

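Values were expected counts, deposited by the authors in 1 table as estimates of reads per gene, and 3.00% to 5.02% of values per library were not whole. Libraries were poly(A)-selected and strand-specific, per the labels' protocols. The submitters' processing notes name fastp 0.23.4, STAR 2.7.0 and 2.7.10 and RSEM 1.3.3. The genome build, the annotation and the use of strand in counting are not given in the sources used here. Groups and replicate numbers came from the titles, and 0 columns were left unused.

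The expected counts were rounded and 14986 of 32520 genes kept by edgeR's filterByExpr. One model of 4 group means was fitted with TMM scaling (factors 0.815 to 1.26) and tested with edgeR 4.0.16 quasi-likelihood F tests (R 4.3.3, limma 3.58.1), with Benjamini-Hochberg adjustment and a threshold of 0.05. Each SE was calculated as the absolute log2 fold change over the square root of the F statistic. The 95% intervals were calculated from that SE and a t quantile, and are approximate. Log2 CPM used a prior count of 2. DESeq2 1.42.0 was an alternative, beside RLE scaling, other filters, a fit of the compared groups alone, a replicate block and leaving out each library. The tests were checked on simulated counts. Replicate pairs differed by more than sampling noise (chi-square per degree of freedom 7.49 to 35.9 over 24 pairs), so each library counts as 1 sample. Each library is a separate pool, and p-values measure the spread between these pools. Depth limits the precision for genes at few counts.

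Gene IDs were given symbols from a separate table, where 145 of 149 pathway names and 61 of 74 marker names were found. Named besides the 5 genes are the up to 6 largest changes among the called genes of each list with a mean of at least 5 CPM in a compared group, the main Fos, Jun and SRF genes, and the 3 genes most alike to each of the 5. From these only some are printed, and 1 is not reported here. The genes f3a, klf2b and spred2a and the second IDs of JDP2, KLF11 and NR4A2 were named after their values were seen. The 5 genes and all lists were chosen with earlier results of these data known.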

Additional observations from a re-analysis of the deposited data

Results flagged for a closer look

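Among the 24 sets of 4 libraries examined for a value far from the others, 1 was found, and chance alone gives about 1 in 20. It was junbb in replicate 1 of the injured mutants, at 45.2 CPM where the other 3 libraries read 94.5 to 98.4 CPM. The gap took up 0.927 of the group's range, above Dixon's critical value for 4 samples. The same library was the lowest of its group for fosab, junba and egr1, and its total of 7452317 counts lay within the range of the others.

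The gene klf2b (ENSDARG00000040432), a Krüppel-like factor of endothelium that flow induces, moved in opposite directions in the genotypes. It fell in wild type from 67.7 ± 14.2 to 35.0 ± 13.3 CPM, a log2 fold change of -0.95 (edgeR adjusted p = 0.00811), and rose in mutants from 30.7 ± 7.03 to 55.8 ± 8.13 CPM (SD, n = 4 each), a log2 fold change of 0.86 (edgeR adjusted p = 0.0138). Every injured library lay below every sham one in wild type and above every sham one in mutants. The difference between the responses was 1.81 on the log2 scale (SE 0.35, unadjusted p = 5.57e-05, edgeR adjusted p = 0.108). By DESeq2 it was 1.81 with an adjusted p of 0.000971, and by edgeR without a filter on low counts the adjusted p was 0.0234. Leaving out replicate 1 of the injured wild type gave 2.04 and an adjusted p of 0.0392, and the other leave-outs gave 1.60 or more with adjusted p up to 0.316. The call in mutants was lost without replicate 2 of the sham mutants (0.71, adjusted p = 0.0538). Of the 122 list genes, klf2b was the only one whose libraries were apart in opposite directions. It was flagged for that trait, so its separation and the tests of the difference between responses are not independent of the choice. The share of all genes with libraries apart in opposite directions was not computed.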

How the results depend on the processing

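The calls of junba and junbb after injury, and of fosab in mutants, held under all alternatives run, and no gene of the 5 was called in a comparison of genotypes under any. DESeq2 called 672 genes between injured genotypes in place of 384, with 4 list genes in place of 1, and 39 genes with 2 list genes in the interaction in place of 0. Without a low-count filter these were 2 list genes between injured genotypes, and 10 genes with 2 list genes in the interaction. A fit of the compared groups alone gave 198 genes between injured genotypes. The cause of these shifts was not tested. The replicate block turned the sign of 3 values near 0: junbb between sham genotypes (-0.008, adjusted p = 0.994), and in the interaction junba (0.025) and egr1 (0.165). It changed no call of the 5 genes. Of the list genes named, it lost those of FOSL2 (adjusted p = 0.0652) and the second KLF11 ID (0.0765) between sham genotypes, of JDP2 in wild type (0.0691) and of JUND and KLF9 in mutants (0.0542 and 0.123), and called the other SOCS3 ID in wild type (0.0426). Libraries with the same number had correlations of -0.15 to 0.21 between compared groups, and those with unlike numbers were not computed. These values do not show whether the numbers pair the libraries. Without the 2 farthest libraries, r was 0.075 for atf3 and egr1 and 0.585 for junba and egr1.

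Leaving out 1 library gave 208 to 534 genes between injured genotypes, 559 to 724 between sham genotypes and 0 to 6 in the interaction, and 0 to 5, 3 to 7 and 0 to 1 list genes. The log2 values ranged from 1.43 to 2.43 for fosab after injury in wild type, 0.64 to 1.38 for atf3 after injury in mutants, -0.15 to 0.71 for egr1 between injured and -0.046 to 0.459 between sham genotypes, and -0.18 to 0.29 for junbb between sham genotypes. In the interaction they were -0.40 to 0.46 for egr1, -0.37 to 0.21 for junba and -0.087 to 0.536 for junbb. The r of atf3 and egr1 ran from -0.24 to 0.17. After injury, JUN in mutants ran from -0.136 to 0.301, FOSB in wild type from -0.654 to 0.984, and SRF from -0.384 to 0.095 in mutants (ENSDARG00000102867) and -0.074 to 0.398 in wild type (ENSDARG00000053918).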
